A study of Cucumis melo with 27 samples.

Results

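CmAPRR2 (MELO3C003375.2), CmPPR1 (MELO3C003069.2) and CmKFB (MELO3C011980.2) are 3 melon genes known from work on fruit pigment, and they were taken by these IDs from the 25200 genes counted in each library of an RNA-seq series on Cucumis melo. The 27 libraries came from field-grown plants of 2 cultivars, which the labels name F39 and TTDV with no further genotype. Fruits of TTDV and of F39 were harvested 20-25, 30-35, 40 and 45 days (d) after flowering, and leaves of F39 were sampled at an age of 14 d, with 3 libraries in each of these 9 groups. The labels say fruit without naming rind or flesh, and nothing in them tells whether libraries of 1 group were made from different plants. P-values here therefore measure the spread between libraries, which may be technical. In such bulk tissue, fewer cells of a type and less RNA per cell cannot be told apart.

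Each file is headed by a library number that also ends 1 sample title, and files were matched to titles by that number. For 15 libraries this is also the attachment in GEO. For the other 12 it is not. Libraries S10 to S12 are titled TTDV 20-25 d and attached to F39 45 d. Libraries S13 to S15 are titled TTDV 30-35 d and attached to TTDV 20-25 d. Libraries S16 to S18 are titled TTDV 40 d and attached to TTDV 30-35 d, and S59 to S61 are titled F39 45 d and attached to TTDV 40 d. The same 3 libraries form a group under both assignments, so levels stay with the libraries and what moves is the group name. Fold changes that were called under either assignment are given for both.

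Total counts ran from 6025615 to 28731038 per library. All 3 genes passed the filter on low counts, with which 15130 genes were tested. The 45 d libraries carry the numbers S59 to S64, apart from S1 to S21 of the rest, so that with files matched by number the 45 d stage and this range of numbers cannot be told apart. The libraries of F39 fruit at 30-35 d lay far apart on a transcriptome-wide scale set to 0 at the mean of F39 20-25 d and to 1 at that of F39 40 d: S4 lay at 0.177, S6 at 0.561 and S5 at 0.954. Each library of F39 20-25 d and 40 d was left out of its own group's mean when it was placed. Those of 20-25 d lay at 0.0467 to 0.0903 and those of 40 d at 0.825 to 1.02. S10 to S12, titled TTDV 20-25 d and attached to F39 45 d, lay at -0.0136, -0.0525 and 0.016. Which assignment is right was not tested. Product names were paired with 0 of the IDs in the files, so tissue markers and the other genes of the pigment pathways were not tested by name.

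As background, APRR2 is a pseudo-response-regulator-like transcription factor. In tomato its overexpression raises plastid number and pigment, and in melon and watermelon variants of the gene are associated with rind colour. Pentatricopeptide repeat proteins bind RNA in plastids and mitochondria, and CmPPR1 was put forward in melon as a candidate for the colour of the flesh. CmKFB is a Kelch-domain F-box protein, of the kind that marks enzymes for degradation, and in melon its expression goes with low naringenin chalcone, the yellow flavonoid of the rind.

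CmAPRR2 was a fruit transcript in these libraries. It stood at 45.4 to 545 CPM (counts scaled to 1e+06 counts of the library total) in the 24 fruit libraries, with a median of 229, against 0.310, 2.61 and 0.139 CPM in leaf libraries S19, S20 and S21. The lowest fruit library thus lay above the highest leaf library, and the 3 leaf libraries held 55 counts of the gene together. In the libraries with agreeing numbers, F39 fruit at 20-25, 30-35 and 40 d averaged 186 ± 163 CPM (SD, n = 9) and leaf 1.02 ± 1.38 CPM (SD, n = 3). The log2 fold change (log2 FC) of CmAPRR2, fruit over leaf, was 6.34 (SE 0.93), and it passed the threshold with a Benjamini-Hochberg adjusted p of 8.24e-06 in the quasi-likelihood test of edgeR. In this comparison 52.8% of the 15130 genes tested were called. Without leaf library S20, which held 47 of the 55 leaf counts, the log2 fold change was the highest of the 12 fits that left out 1 library, at 8.65, and the lowest was 5.77.

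The difference from leaf was there at both ends of the agreed F39 series. At 20-25 d CmAPRR2 exceeded leaf by a log2 FC of 5.29 (SE 0.93; edgeR, adjusted p = 1.13e-04), in a comparison that called 41.1% of genes. At 40 d it was 6.71 (SE 0.98, adjusted p = 1.64e-05 by edgeR), where 49.2% of genes were called. The effective library sizes of the leaf libraries were 0.53 to 0.604 of their totals, against 0.877 to 1.3 in fruit, after scaling by TMM (trimmed mean of M-values). Median-of-ratios scaling put the median log2 FC over the tested genes at -0.164, where TMM put it at 0.088, and gave CmAPRR2 a log2 FC of 6.08 in fruit over leaf.

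**Figure D1:**
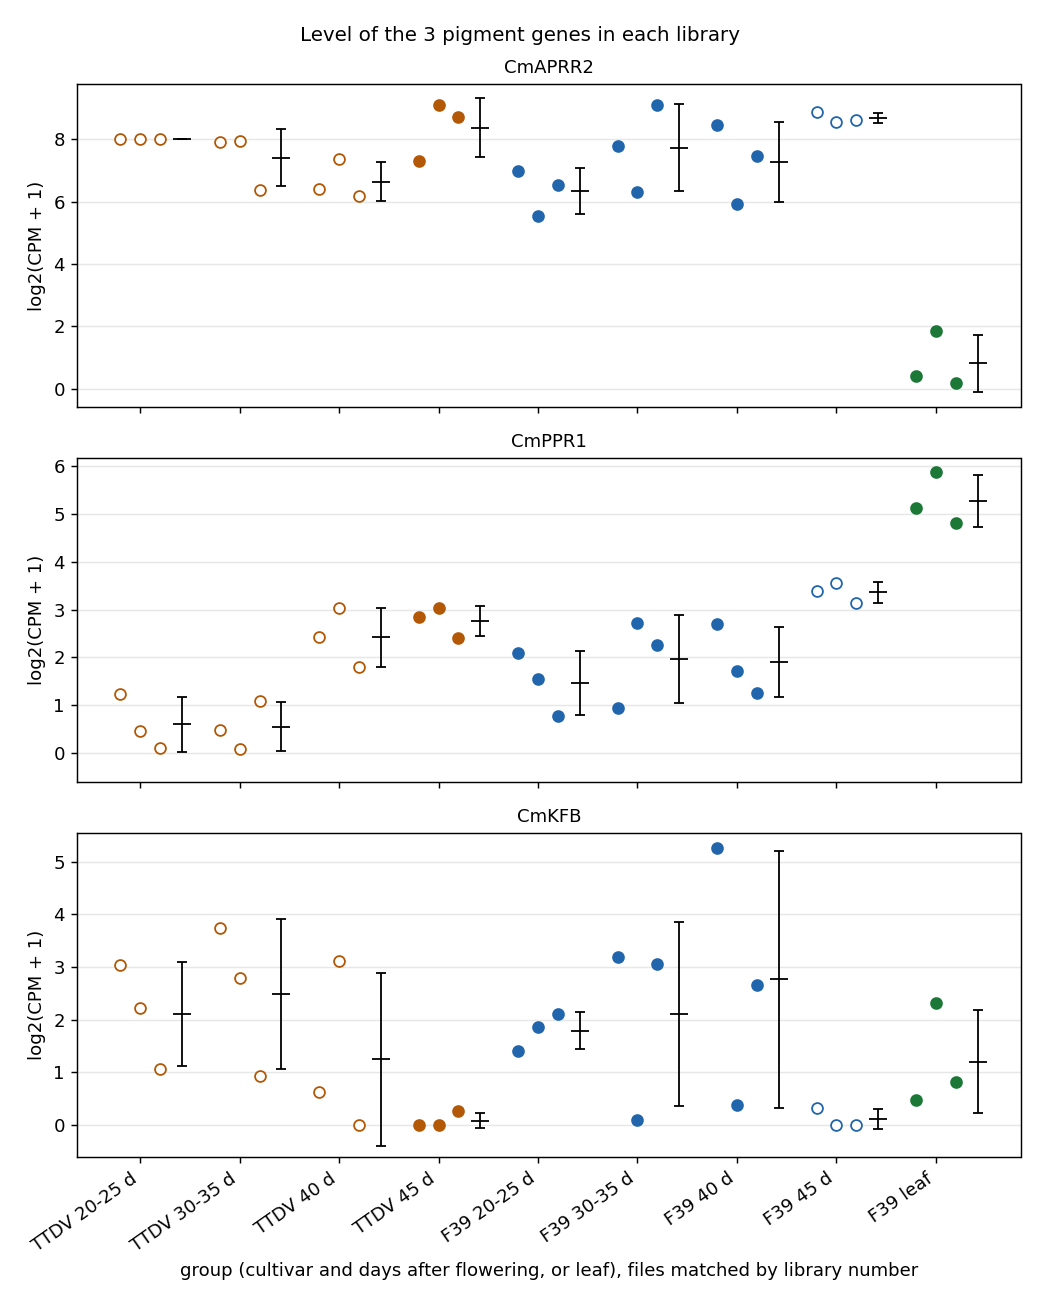
Level of CmAPRR2, CmPPR1 and CmKFB, as log2(CPM + 1), in each of the 27 libraries, by group with files matched by library number; each point is a library, open points mark the 12 libraries attached to another group in GEO, and bars give mean and SD (n = 3). CmAPRR2 is high in all fruit groups and low in leaf, CmPPR1 is highest in leaf, and CmKFB is at or near 0 in the 6 libraries of 45 d.

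Within fruit, the level of CmAPRR2 differed between libraries of 1 group as well as between groups. In TTDV it stood at 254, 257 and 258 CPM at 20-25 d (S10 to S12), 239, 246 and 81.3 CPM at 30-35 d (S13 to S15), 82.7, 163 and 71.5 CPM at 40 d (S16 to S18) and 156, 545 and 415 CPM at 45 d (S62 to S64). In F39 it stood at 124, 45.4 and 91.2 CPM at 20-25 d (S1 to S3), 218, 77.5 and 541 CPM at 30-35 d (S4 to S6), 346, 59.4 and 174 CPM at 40 d (S7 to S9) and 465, 377 and 387 CPM at 45 d (S59 to S61). The 3 libraries S10 to S12 were nearly equal, whereas those of F39 30-35 d spanned 6.97-fold. All 3 libraries of TTDV 20-25 d lay above those of TTDV 40 d, and all 3 of S59 to S61 above those of F39 40 d and of F39 20-25 d. Here and below, how many other genes separate the same libraries was not counted. In the order of group means, from F39 45 d (409.6 ± 48.5 CPM), TTDV 45 d (372 ± 198), F39 30-35 d (279 ± 237), TTDV 20-25 d (256.5 ± 1.99), F39 40 d (193 ± 144), TTDV 30-35 d (189 ± 93.2) and TTDV 40 d (106 ± 49.9) to F39 20-25 d (87.0 ± 39.7; SD, n = 3 each), every group overlapped the next in this order, which mixes the cultivars. The step from there down to leaf was the one without overlap.

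In the fit to all libraries, no step between fruit stages and no difference between the cultivars passed the threshold for CmAPRR2 under either assignment. Between 40 and 20-25 d the log2 fold change was -1.30 in TTDV (95% interval -2.89 to 0.29, adjusted p = 0.192 by edgeR) and 1.42 in F39 (-0.18 to 3.01, adjusted p = 0.177 by edgeR). With only the groups compared in the fit, the TTDV value was -1.32 and passed (adjusted p = 0.0371 by edgeR). The share of genes called in fits of this kind was not computed. The TTDV change minus the F39 change was -2.71 (95% interval -4.97 to -0.46), with an unadjusted p of 0.0207 and an adjusted p of 0.451 in edgeR's fit over all genes. This comparison called 0 genes by edgeR, or 0%, beside 1414 at an unadjusted p under 0.05 and 117 called by DESeq2. As attached in GEO, the change in TTDV was 0.93 and the difference between the cultivars' changes -0.48, neither called.

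At 20-25 d all 3 TTDV libraries by number (S10 to S12) lay above all 3 of F39, whereas as attached (S13 to S15) S15 lay within the range of F39. The log2 FC was 1.75 by library number (95% interval 0.13 to 3.36, adjusted p = 0.381 by edgeR) and 1.36 as attached (adjusted p = 0.56). The fit with only these 2 groups gave 1.76 by number with an adjusted p of 0.0483 by edgeR, and its share of genes called was not computed. Over the mean of the 4 stages, the cultivars differed by 0.07 (95% interval -0.71 to 0.86), TTDV over F39, and as attached by 0.35. By library number, comparisons between cultivars called 0.185% of genes at 20-25 d and 8.52% at 30-35 d. They called 0.185% at 40 d, 0.297% at 45 d and 8.8% for the mean of 4 stages. The steps between neighbouring stages called 5.87% for F39 30-35 over 20-25 d, 0.74% for F39 40 over 30-35 d, 7.45% for F39 45 over 40 d, 0.284% for TTDV 30-35 over 20-25 d, 26.2% for TTDV 40 over 30-35 d and 1.86% for TTDV 45 over 40 d. The comparison of F39 40 with 20-25 d called 26.1%.

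CmPPR1 showed the opposite tissue pattern, with its highest levels in leaf. It stood at 0.0654 to 10.8 CPM in the 24 fruit libraries, with a median of 2.87, against 33.7, 57.3 and 27.01 CPM in leaf libraries S19, S20 and S21. Every fruit library lay below every leaf library. F39 fruit at 20-25, 30-35 and 40 d averaged 2.82 ± 1.83 CPM (SD, n = 9) and leaf 39.3 ± 15.9 CPM (SD, n = 3), with a log2 FC of -4.75 (SE 0.56; edgeR, adjusted p = 4.29e-07). The difference was called at 20-25 d, at -5.38 (SE 0.90, adjusted p = 6.46e-05 by edgeR), and at 40 d, at -4.50 (SE 0.87, adjusted p = 2.49e-04). Fruit of the 3 stages over leaf called 52.8% of genes, 20-25 d over leaf 41.1% and 40 d over leaf 49.2%. All 24 fits of these 3 comparisons that left out 1 library kept the call.

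In TTDV fruit the level of CmPPR1 differed between stages. It stood at 1.36, 0.387 and 0.0846 CPM at 20-25 d (S10 to S12), 0.405, 0.0654 and 1.13 CPM at 30-35 d (S13 to S15), 4.38, 7.16 and 2.48 CPM at 40 d (S16 to S18) and 6.15, 7.22 and 4.32 CPM at 45 d (S62 to S64). The 6 libraries of the earlier stages all lay below the 6 of the later ones, on 24 and 16 counts for the 20-25 and 30-35 d groups and 179 and 135 counts for the 40 and 45 d groups. The share of genes with such a separation was not computed. CmPPR1 was higher at 40 than at 30-35 d, with a log2 FC of 3.28 (SE 0.87; edgeR, adjusted p = 0.00996), where 26.2% of genes were called. These same 6 libraries are TTDV 30-35 against 20-25 d as attached, so this rise lay within TTDV under both assignments. The call was kept in all 6 fits that left out 1 library, and lost with only the groups compared in the fit (adjusted p = 0.0673). As attached, TTDV 40 over 30-35 d sets S59 to S61 against S16 to S18 and gave 0.90 (adjusted p = 0.558 by edgeR). By library number, TTDV 30-35 over 20-25 d gave -0.47 (adjusted p = 0.878 by edgeR).

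Between 40 and 20-25 d CmPPR1 rose in TTDV by 2.81 (SE 0.84, adjusted p = 0.0139 by edgeR), where 35.1% of genes were called. As attached it was 4.18 (adjusted p = 0.00134 by edgeR), with 36% of genes called. The call by library number was lost without S11, S12 or S17 (adjusted p between 0.0546 and 0.0621) and with only the groups compared (adjusted p = 0.0717).

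In F39 fruit the stages with agreeing numbers did not separate. CmPPR1 stood at 3.25, 1.94 and 0.705 CPM at 20-25 d, 0.928, 5.54 and 3.78 CPM at 30-35 d, and 5.51, 2.31 and 1.41 CPM at 40 d. These ranges overlapped, and 40 over 20-25 d gave 0.87 (95% interval -0.76 to 2.50, adjusted p = 0.426 by edgeR). Libraries S59 to S61, titled F39 45 d, held 9.49, 10.8 and 7.76 CPM, more than any other fruit library. Against F39 40 d their log2 fold change was 1.39 (95% interval -0.23 to 3.01, adjusted p = 0.282 by edgeR), a comparison whose name in the attachment is TTDV over F39 fruit of 40 d. As attached, F39 45 d is S10 to S12, lower than F39 40 d by -2.31 (adjusted p = 0.0346 by edgeR), where 38.7% of genes were called. On the transcriptome-wide scale S10 to S12 lay at -0.0525 to 0.016 and F39 40 d at 0.825 to 1.02. The TTDV minus F39 change between 40 and 20-25 d was 1.93 (95% interval -0.41 to 4.27, adjusted p = 0.622 by edgeR) and as attached 3.31 (adjusted p = 0.103), so a difference between the cultivars in this rise was not shown.

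Between the cultivars, CmPPR1 at 30-35 d was lower in TTDV, at 0.533 ± 0.543 CPM (SD, n = 3), than in F39, at 3.42 ± 2.33 CPM (SD, n = 3). The log2 FC was -2.91 (SE 0.87, adjusted p = 0.0391 by edgeR), where 8.52% of genes were called. S4, the F39 library at 0.177 on the transcriptome-wide scale, had 0.928 CPM and lay within the range of TTDV, while S5 and S6 lay above it. The part of this difference in position was not tested. The call was lost without S5, S6, S13 or S14 (adjusted p up to 0.247) and with only the groups compared (adjusted p = 0.351), and as attached the value was 0.37. Over the mean of the 4 stages, TTDV minus F39 was -1.13 (95% interval -1.96 to -0.30, adjusted p = 0.0828 by edgeR), where 8.8% of genes were called. By DESeq2 the adjusted p was 0.033, where 14% of genes were called. As attached the edgeR value was 0.73. At 45 d TTDV minus F39 was -0.65 (adjusted p = 0.907 by edgeR) by library number. As attached it was 3.06 (adjusted p = 0.0072 by edgeR), where 40.1% of genes were called and the F39 group is S10 to S12.

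**Figure D2:**
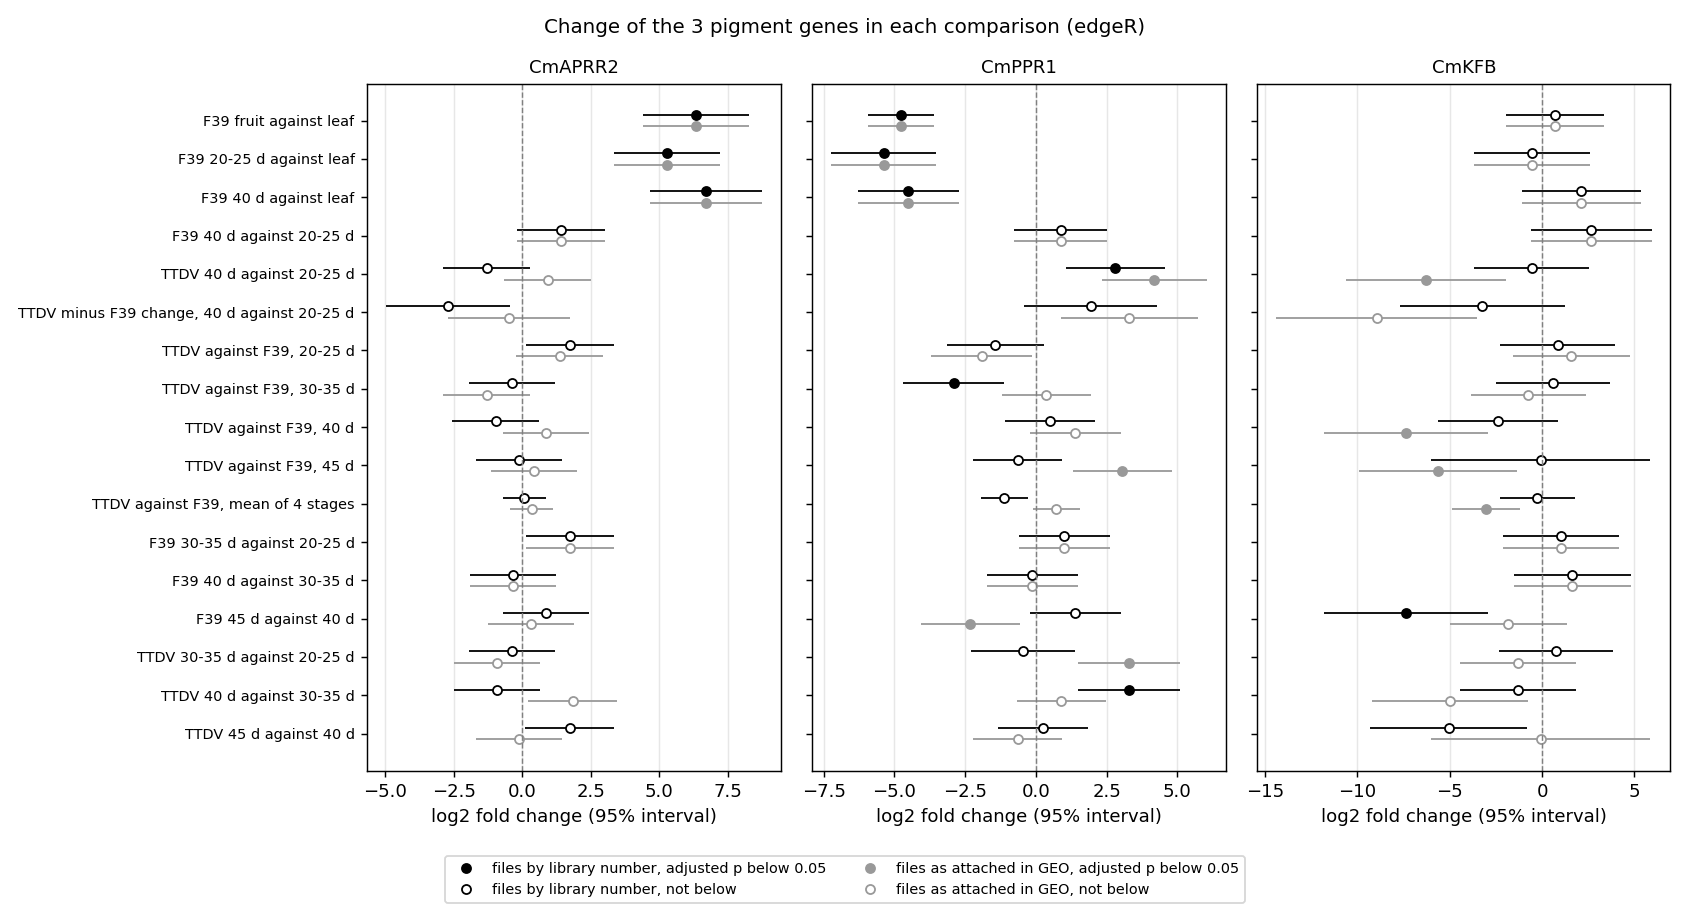
Log2 fold change of each gene in 17 comparisons (edgeR, bars: 95% intervals), with files matched by library number (black) and as attached in GEO (grey); filled points have an adjusted p below 0.05. Filled points in both colours stand at the 3 comparisons with leaf for CmAPRR2 and CmPPR1 and at TTDV 40 against 20-25 d for CmPPR1. The comparisons with leaf set the same libraries against each other under both assignments, so there the colours are alike by construction.

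CmKFB was low in these libraries and uneven within groups. It had 0 to 278 counts per library. In TTDV it stood at 7.23, 3.68 and 1.10 CPM at 20-25 d (S10 to S12), 12.3, 5.89 and 0.903 CPM at 30-35 d (S13 to S15), and 0.547, 7.62 and 0 CPM at 40 d (S16 to S18). In F39 it stood at 1.67, 2.63 and 3.29 CPM at 20-25 d, 8.10, 0.0676 and 7.30 CPM at 30-35 d, and 37.3, 0.308 and 5.30 CPM at 40 d. The groups of 30-35 and 40 d in F39 thus each held a library with 1 or 2 counts (S5 and S8) beside libraries with 49 to 278. For its level, CmKFB varied more within groups than most genes: its pooled SD of log2(CPM + 1) was 1.33, above that of 94.9% of the 1959 genes within 0.5 of its mean on that scale. The same figure was 0.886 for CmAPRR2, above 90.5% of 1184 genes, and 0.598 for CmPPR1, above 36.5% of 1816 genes.

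The 6 libraries numbered S59 to S64 had almost no CmKFB. TTDV 45 d (S62 to S64) had 0, 0 and 2 counts, and the group titled F39 45 d (S59 to S61) had 2, 0 and 0. By the 95% counting interval, a count of 0 allows up to 0.567 CPM in S63 and 0.612 CPM in S60. The floor of 3 counts of the library total was 0.461 CPM in S63 and 0.498 CPM in S60. Against F39 40 d, CmKFB fell at 45 d by library number, with a log2 FC of -7.36 (SE 2.14; edgeR, adjusted p = 0.0401), where 7.45% of genes were called. From pooled counts, 2 at 45 d and 329 at 40 d, the level was 166 times higher at 40 d (95% counting interval 46.1 to 1374). This interval covers the counting error at 45 d alone. It leaves out the spread between the 40 d libraries, which ran from 0.308 CPM in S8 to 37.3 CPM in S7. The call was lost in 5 of the 6 fits that left out 1 library (adjusted p up to 0.165) and without the filter on low counts (adjusted p = 0.0628). Without S7, the library of 278 counts, the log2 fold change was -5.17. As attached, where F39 45 d is S10 to S12, it was -1.82 (adjusted p = 0.352 by edgeR).

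In TTDV, 45 against 40 d gave -5.04 for CmKFB (95% interval -9.29 to -0.80, adjusted p = 0.189 by edgeR), on 2 counts at 45 d and 121 at 40 d, of which 116 came from S17. The cultivars at 45 d differed by -0.06 (95% interval -5.98 to 5.85), a range too wide to show likeness. As attached, S59 to S61 are TTDV 40 d, so both late TTDV groups were near 0. CmKFB was then lower at 40 than at 20-25 d in TTDV by -6.29 (adjusted p = 0.0232 by edgeR, 36% of genes called). It was also lower in TTDV than in F39 at 40 d by -7.36 (adjusted p = 0.0401, 7.45% called), at 45 d by -5.61 (adjusted p = 0.0347, 40.1% called) and over the 4 stages by -3.03 (adjusted p = 0.0158, 28.2% called), all by edgeR. By library number none of these 4 passed, with -0.57, -2.38, -0.06 and -0.26 in the same order. Near-zero levels were not confined to these libraries, since S5, S8 and S18 had 1, 2 and 0 counts.

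CmKFB did not separate fruit from leaf. It stood at 0 to 37.3 CPM in the 24 fruit libraries, with a median of 1.38, against 0.387, 3.998 and 0.766 CPM in leaf libraries S19, S20 and S21. F39 fruit over leaf gave 0.70 (95% interval -1.95 to 3.34, adjusted p = 0.677 by edgeR), and -0.12 without S7. At 20-25 d the mean CPM was higher in fruit, at 2.53 ± 0.818, than in leaf, at 1.72 ± 1.98 (SD, n = 3 each), while the TMM-scaled log2 fold change was -0.53 (95% interval -3.66 to 2.60). Between 40 and 20-25 d CmKFB gave -0.57 in TTDV (95% interval -3.67 to 2.54) and 2.66 in F39 (-0.62 to 5.93), of which the F39 value was 0.45 without S7. The TTDV minus F39 change was -3.22 (adjusted p = 0.678 by edgeR) by library number and -8.95 (adjusted p = 0.0513 by edgeR) as attached.

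On the transcriptome-wide scale from F39 20-25 d to F39 40 d, computed over 10194 genes without these 3, the genes followed position differently. For CmPPR1 the 9 libraries of F39 and TTDV titled 20-25 d and TTDV titled 30-35 d lay between -0.0525 and 0.134 and held at most 3.25 CPM, whereas the 6 of S59 to S64 lay between 0.733 and 0.896 and held at least 4.32 CPM. Other libraries of the late end lay within the range of the early ones, with 1.41 CPM in S9 at 0.825, 2.48 CPM in S18 at 0.922 and 2.31 CPM in S8 at 1.02. The F39 30-35 d libraries S4, S6 and S5, at 0.177, 0.561 and 0.954, held 0.928, 3.78 and 5.54 CPM. CmAPRR2 had both high and low levels at the late end: S8, at 1.02, had 59.4 CPM, and S59, at 0.873, had 465 CPM. CmKFB likewise had 37.3 CPM in S7, at 0.867, and 0 CPM in S60, at 0.896.

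**Figure D3:**
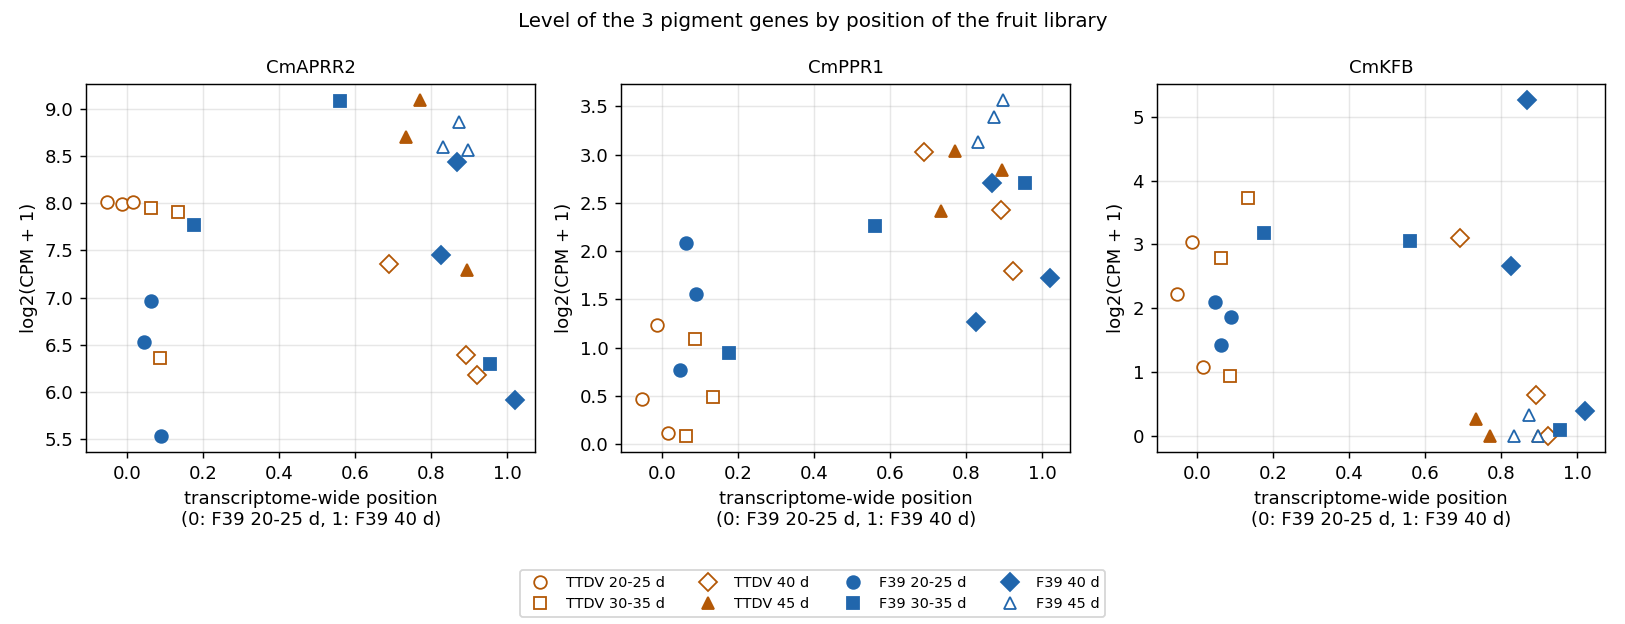
Level of each gene, as log2(CPM + 1), against the transcriptome-wide position of the 24 fruit libraries (0 at the mean of F39 20-25 d, 1 at the mean of F39 40 d); symbols give stage and colours cultivar by library number, and open symbols mark the 12 libraries attached to another group in GEO. Each library of F39 20-25 d and 40 d was left out of its own group's mean when it was placed. CmPPR1 is above 3.25 CPM, the highest value of the early end, in most libraries of the late end but not in S8, S9 and S18, while CmAPRR2 and CmKFB span nearly their whole range there.

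The 3 genes were not alike in their course over libraries. Over all 27 libraries, on log2(CPM + 1), CmAPRR2 and CmPPR1 had Pearson r = -0.578 (Spearman rho = -0.101), which over the 24 fruit libraries alone was 0.245 (rho = 0.277), so that the sign rests on leaf. CmPPR1 and CmKFB had r = -0.41 (rho = -0.535) over the fruit libraries, and CmAPRR2 and CmKFB 0.159 (rho = 0.0236). These are descriptions of libraries that share groups, stage and depth.

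Among genes averaging 5 CPM or more, those most like CmPPR1 over the 27 libraries were MELO3C016049.2 (r = 0.939), MELO3C006400.2 (r = 0.934), MELO3C013855.2 (r = 0.929), MELO3C023582.2 (r = 0.922) and MELO3C008421.2 (r = 0.921). Their r over the fruit libraries alone ran from 0.83 to 0.909, and 16 of 10471 genes reached 0.9 over all 27. For CmAPRR2 the 5 most like were MELO3C034763.2, MELO3C016378.2, MELO3C015091.2, MELO3C003825.2 and MELO3C031037.2, with r of 0.922 to 0.931 over 27 libraries but 0.507 to 0.688 in fruit alone. Of 10471 genes, 38 reached 0.9 with CmAPRR2 over all libraries and 0 did so in fruit, so that this likeness rests mainly on the step between fruit and leaf. CmKFB had no gene at 0.9. The highest were MELO3C025282.2 (r = 0.83), MELO3C022530.2 (0.786), MELO3C007405.2 (0.772), MELO3C002611.2 (0.768) and MELO3C010737.2 (0.756).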

How the data were processed

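The deposited files hold raw counts, as whole numbers per gene, for 27 libraries. The submitters' processing notes name STAR 2.5.4b and edgeR 3.12.1 without saying what each did. Which program counted reads, on which build and annotation, and how it treated strand and multiply matching reads is not given in the sources used here. For that reason, genes with close copies or overlaps have uncertain counts. Per the labels' protocols, RNA was extracted in Trizol and cDNA made with a kit of NuGen.

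The tests used edgeR 4.0.16 under R 4.3.3, with filterByExpr, TMM scaling, 1 mean per group over all 27 libraries and robust quasi-likelihood F-tests. Each gene had 17 comparisons, with p-values adjusted by Benjamini-Hochberg over 15130 genes and a threshold of 0.05. The spread is thus shared by all groups. Intervals are 95%, CPM uses the library total, and likeness used log2(CPM + 1). Alternatives were the attachment in GEO, DESeq2 1.42.0, median-of-ratios scaling, no filter, a stricter filter (1 CPM in 3 libraries and a mean of 5 CPM), fits of the compared groups or the 15 agreeing libraries alone, and leaving out each library. The edgeR code was tested on simulated data with less spread than these, which checks the code and not the error rate here. Counting intervals and the floor of 3 counts cover counting error alone.

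The 3 genes and the comparisons were chosen with earlier results of these data known. Besides them, the text names the 5 genes with the highest r to each. Likeness within groups was added after seeing the data. Tables and plots came from Python 3.11.15 with pandas 2.3.3, numpy 2.4.6, scipy 1.17.1 and matplotlib 3.10.9.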

Additional observations from a re-analysis of the deposited data

How the results depend on the processing

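Of the 51 fold changes (3 genes in 17 comparisons), 13 changed direction as attached, 7 gained a call and 3 lost one, with 19 changed in at least 1 of these ways. As attached, CmAPRR2 had 0.93 for TTDV 40 against 20-25 d, 1.84 for 40 against 30-35 d, -0.11 for 45 against 40 d, and for TTDV against F39 0.88 at 40 d and 0.44 at 45 d. CmPPR1 had -2.31 for F39 45 against 40 d, 3.28 for TTDV 30-35 against 20-25 d, -0.65 for TTDV 45 against 40 d, and for TTDV against F39 0.37 at 30-35 d, 3.06 at 45 d and 0.73 over the 4 stages. CmKFB had -1.31 for TTDV 30-35 against 20-25 d and, for TTDV against F39, -0.74 at 30-35 d. It gained calls at -6.29 (TTDV 40 against 20-25 d), -7.36, -5.61 and -3.03 (TTDV against F39 at 40 d, 45 d and over the 4 stages). The cause lies in the construction, since other libraries carry those names.

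With only the groups compared, CmAPRR2 gained calls for TTDV 40 against 20-25 d (-1.32) and TTDV against F39 at 20-25 d (1.76), and CmPPR1 lost those for TTDV 40 against 20-25 d (2.79), TTDV 40 against 30-35 d (3.22) and TTDV against F39 at 30-35 d (-2.91). DESeq2 added a call for CmPPR1 over the 4 stages (-1.13), in a comparison where it called 14% of genes. Median-of-ratios scaling, the stricter filter and the 15 agreeing libraries changed no direction or call among the 51, 34 and 18 values they gave; the stricter filter removed CmKFB. CmAPRR2 and CmPPR1 changed from r = -0.578 over all libraries to 0.245 in fruit, or 0.214 with TMM scaling.

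Leaving out 1 library kept the fruit against leaf calls of CmAPRR2 and CmPPR1. Of the 51 fold changes, 19 changed direction in at least 1 such fit, 1 gained a call and 3 lost one. The fold changes of CmAPRR2 ran from -0.91 to 0.47 for F39 40 against 30-35 d, from -0.72 to 0.03 for TTDV 30-35 against 20-25 d, and for TTDV against F39 from -0.75 to 0.42 at 30-35 d, -0.48 to 0.22 at 45 d and -0.04 to 0.27 over the 4 stages. Those of CmPPR1 ran from -0.66 to 0.71 for F39 40 against 30-35 d, and in TTDV from -1.35 to 1.01 for 30-35 against 20-25 d, 2.21 to 4.26 for 40 against 20-25 d and -0.05 to 0.75 for 45 against 40 d. For TTDV against F39 they ran from -3.73 to -2.12 at 30-35 d, -0.04 to 1.03 at 40 d and -1.51 to -0.94 over the 4 stages, the last called without S4, S10 or S15.

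For CmKFB they ran from -0.12 to 2.27 for F39 fruit, -1.03 to 1.05 for F39 20-25 d and -0.15 to 3.70 for F39 40 d, each against leaf, from -0.54 to 2.23 for F39 40 against 30-35 d and from -10.37 to -5.17 for F39 45 against 40 d. In TTDV they ran from -0.31 to 1.59 for 30-35 against 20-25 d and -4.07 to 0.22 for 40 against 20-25 d. For TTDV against F39 they ran from -0.02 to 1.32 at 20-25 d, -0.44 to 1.16 at 30-35 d, -2.98 to 2.91 at 45 d and -1.12 to 0.48 over the 4 stages. Low counts affected CmKFB most, with 3 counts or fewer in 9 of the 24 fruit libraries, against 2 for CmPPR1 and 0 for CmAPRR2. No paired analysis was possible because the labels do not name the plant that each library came from.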

Other observations

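In some groups of fruit libraries, CmAPRR2 and CmKFB were high or low in the same library. This was looked for after seeing the data, and it does not depend on how files are matched to titles, since the same 3 libraries form a group under both assignments. With each library taken as its deviation from the mean of its group, on log2(CPM + 1), the 2 genes had Pearson r = 0.763 (Spearman rho = 0.679) over the 24 fruit libraries in 8 groups, and 0.668 (rho = 0.624) without F39 40 d. S7 was highest and S8 lowest in both genes among the F39 40 d libraries. S17 was highest in both at TTDV 40 d, S15 lowest in both at TTDV 30-35 d and S5 lowest in both at F39 30-35 d. On CPM of the library total, the same library was highest in both genes in 3 of the 8 fruit groups. After TMM scaling this was so in 5 of the 8. The same library was lowest in both in 6, counting ties at 0 counts of CmKFB at 45 d. At TTDV 45 d both S62, lowest in CmAPRR2, and S63, highest in it, had 0 counts of CmKFB. Sharing the highest library did not set this pair apart. It occurred in 4 of the 8 groups for CmAPRR2 and CmPPR1 and in 3 for CmPPR1 and CmKFB. After TMM scaling these counts were 5 and 3. In other groups the order of CmAPRR2 and CmKFB differed. At F39 20-25 d S1 was highest in CmAPRR2 and lowest in CmKFB, and at TTDV 20-25 d S12 was highest in CmAPRR2 and lowest in CmKFB.

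Of 10470 other genes averaging 5 CPM or more, 157 (1.5%) had an r with CmAPRR2 of this size or more, and 92 (0.879%) had one with CmKFB. CmPPR1 had r = 0.0462 with CmAPRR2 and 0.119 with CmKFB in the same measure. The deviations also went with the deviation of a library's transcriptome-wide position, with r = -0.514 for CmAPRR2, -0.591 for CmKFB and 0.398 for CmPPR1. The part of position in the likeness of CmAPRR2 and CmKFB was not tested.

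Among the leaf libraries, S20 was highest for all 3 genes, with 2.61 CPM of CmAPRR2, 57.3 CPM of CmPPR1 and 3.998 CPM of CmKFB.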
